A study of Rattus norvegicus with 4 samples.

Results

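The genes described here encode 8 structural proteins of the myelin that Schwann cells wrap around peripheral axons: Pmp22, Mbp, Mag, Pmp2, Prx, Cnp, Mal and Ncmap. They were taken by gene name from a count table of 32545 rat genes, each name matching 1 gene, and 7 of the 8 had enough counts to be tested among 13018 genes. The cells were S16, an immortalised rat Schwann cell line, grown in plastic wells. In 2 libraries the cells carried a control siRNA (IDT DS NC1) and in 2 libraries siRNAs against Nr2f1 and Nr2f2, which encode COUP-TFI and COUP-TFII, nuclear receptors without an established ligand. All libraries share the cell line, the transfection reagent and poly-A selection, and the labels mention no neurons in the cultures.

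Myelin is a spiral of Schwann cell membrane. In its compact part the membranes lie tightly apposed, held from outside by adhesive membrane proteins and from the cytoplasmic side by basic and lipid-binding proteins. In its non-compact part, which includes the innermost turn, the paranodes and the cytoplasmic channels, the layers keep cytoplasm and carry other adhesion and scaffold proteins. Schwann cells switch these genes on together when they contact an axon, largely through Sox10 and Egr2.

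Promoter sequences are shown for members that passed the test in opposite directions, so that the stretch next to each start can be compared. They are RefSeq sequences of build GRCr8, on the gene's own strand, from 250 bases before the start to 50 bases from it on. Capitals mark AGGTCA, the core hexamer that COUP-TF and many other nuclear receptors bind, searched on both strands. Pmp22 and Cnp were higher and Mag lower in the Nr2f1/Nr2f2 siRNA libraries.
Pmp22, chr10:48294682-48294981, plus strand: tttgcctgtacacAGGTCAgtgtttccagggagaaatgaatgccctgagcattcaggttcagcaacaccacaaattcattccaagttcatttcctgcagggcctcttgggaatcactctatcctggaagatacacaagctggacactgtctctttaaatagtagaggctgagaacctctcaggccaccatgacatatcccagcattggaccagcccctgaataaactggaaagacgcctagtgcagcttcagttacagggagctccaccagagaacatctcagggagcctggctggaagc
Cnp, chr10:86011254-86011553, plus strand: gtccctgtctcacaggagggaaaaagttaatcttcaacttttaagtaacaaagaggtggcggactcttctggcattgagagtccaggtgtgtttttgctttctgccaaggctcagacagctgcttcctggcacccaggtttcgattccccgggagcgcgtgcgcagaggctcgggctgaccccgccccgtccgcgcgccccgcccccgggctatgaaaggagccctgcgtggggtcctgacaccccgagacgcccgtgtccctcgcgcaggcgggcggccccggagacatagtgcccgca
Mag, chr1:95290995-95291294, minus strand: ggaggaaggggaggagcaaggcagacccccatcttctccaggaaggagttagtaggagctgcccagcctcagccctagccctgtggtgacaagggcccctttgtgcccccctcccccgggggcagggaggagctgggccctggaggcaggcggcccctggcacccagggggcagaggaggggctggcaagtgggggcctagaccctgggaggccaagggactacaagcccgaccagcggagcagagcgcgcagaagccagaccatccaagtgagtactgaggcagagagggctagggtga

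The hexamer occurred once in the Pmp22 window, with its first base at -237 from the start. Promoter entries were found for 7 of the 8 members, all but Pmp2. For members other than Mbp only the first entry was searched, so any further start is not covered. Mal was the other member with the hexamer, at 22 bases past the start, and neither of the 2 entries of Mbp held it. Among all 33469 rat promoter windows of this length, 16.2% held it. The match says only that these letters are there.

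Depth and labels were as follows. CPM below are counts scaled to a common library size with TMM factors. Counts assigned to genes totalled between 21556011 and 43057750 per library. Nr2f1 stood at 27.1% and Nr2f2 at 24.4% of the control level in the siRNA libraries, and both fell in each library (log2 fold changes of -1.89 and -2.04). Of 8 listed Schwann cell markers, 7 were found in the table and 6 reached 10 counts, with a summed level of 3127 to 3486 CPM over the 4 libraries, and Gap43 had no count. The cells also expressed some oligodendrocyte markers, mainly Myrf, at a summed 580.4 (A) and 522.5 CPM (B) with control siRNA and 740.6 (A) and 709.2 CPM (B) with Nr2f1/Nr2f2 siRNA, while Opalin and Olig1 had no count. Within that list Myrf (log2 fold change 0.39, adjusted p = 0.00458) and Nkx2-2 (0.83, adjusted p = 0.000502) rose, Sox8 fell (-0.81, adjusted p = 0.0244), and Mog and Olig2 did not pass. The summed level was at most 1.97 CPM for immune, 6.09 CPM for endothelial and 16.7 CPM for neuronal markers in any library. The neuronal sum was nearly all Nefm, which had 13.8 and 15.1 CPM with control siRNA against 6.40 and 6.30 CPM with Nr2f1/Nr2f2 siRNA, while Syn1 did not pass (adjusted p = 0.914) and Rbfox3 and Stmn2 had no count. Fibroblast markers summed to 12080 to 13150 CPM, led by Col1a1, while Dcn, Lum and Dpt had no count. The part of these markers in the results was not tested. Within each group the letters A and B name the libraries, following the deposited column order. Separate cultures are not stated in the labels, and the p-values therefore cover the variation among these 4 libraries alone, and that may be technical. In bulk RNA, fewer cells of a kind and less RNA per cell cannot be told apart.

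S16 cells expressed these genes at very different levels. Levels between genes are compared per length, as TMM-scaled CPM per kilobase of gene length. Pmp22 stood highest, at 1430 ± 14.2 in control and 1784 ± 13.3 CPM per kilobase in siRNA libraries (mean ± SD, n = 2), which ranked it between 16 and 27 among all listed genes. Cnp, Pmp2 and Mag followed, at 444.8 ± 22.3, 333.6 ± 17.3 and 159.0 ± 6.29 CPM per kilobase in control libraries. Far below them came Prx at 19.4 ± 0.553, Mbp at 13.8 ± 1.74 and Mal at 5.19 ± 0.746 CPM per kilobase, and Ncmap was at 0. The order was the same in all 4 libraries, and no pair of neighbours overlapped in their ranges. The closest neighbours were Prx and Mbp, with Prx 1.19 to 1.57 times as high as Mbp. Together the 8 genes held 0.472% (A) and 0.484% (B) of all counts with control siRNA, and 0.564% (A) and 0.553% (B) with Nr2f1/Nr2f2 siRNA. Pmp22 alone made up 59.0% and 57.6% of those counts in control and 63.6% and 65.4% in siRNA libraries.

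**Figure D1:**
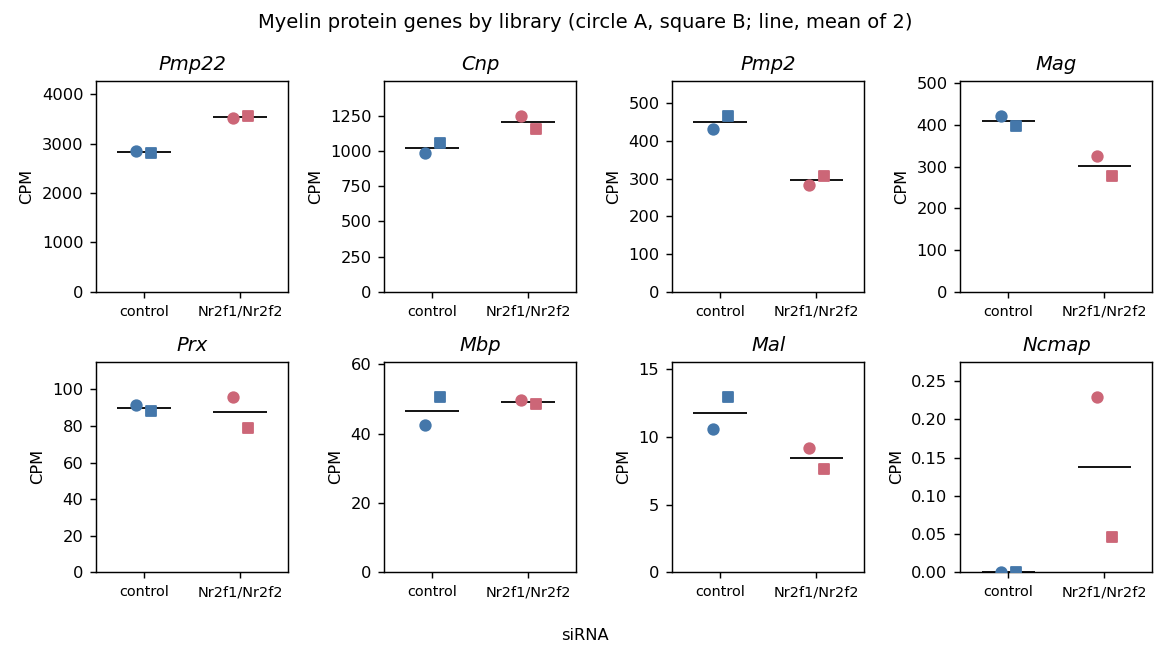
TMM-scaled CPM (vertical axes from 0, one scale per gene) of the 8 myelin protein genes in the 2 control siRNA and 2 Nr2f1/Nr2f2 siRNA libraries; points are libraries and lines are group means. Pmp22 and Cnp lie higher and Pmp2, Mag and Mal lower in both siRNA libraries, while Prx and Mbp overlap and Ncmap has 6 and 2 counts in siRNA libraries against 0.

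The compact myelin genes did not move together. Pmp22 rose to 125% of its control level, Pmp2 fell to 65.8%, and Mbp did not pass the test.

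Pmp22 encodes the tetraspan protein of compact peripheral myelin whose gene dosage underlies inherited neuropathies in people. Its gene (ENSRNOG00000003338) lies on chromosome 10 from 49538588 to 49568583 on the plus strand. It had 2854 CPM in control A, 2814 CPM in control B, 3516 CPM in siRNA A and 3554 CPM in siRNA B. Both siRNA libraries lay above both control libraries, and the gap was many times the spread within a group. Its log2 fold change was 0.32 (SE 0.07, 95% interval 0.18 to 0.46), with an adjusted p = 0.00552. With 1 library left out the fold change stayed between 0.30 and 0.33, but the adjusted p rose to 0.0529 when siRNA A was left out and 0.0742 when siRNA B was.

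Pmp2 encodes a fatty acid binding protein that sits at the cytoplasmic face of compact myelin. The gene (ENSRNOG00000022707) lies on chromosome 2 from 93827504 to 93831419 on the plus strand. It fell from 432.9 and 465.8 CPM in control libraries to 284.6 and 306.5 CPM in siRNA libraries. The groups did not overlap. The log2 fold change was -0.60 (SE 0.08, 95% interval -0.77 to -0.44), with an adjusted p = 0.000214. It was called under all 14 alternatives, between -0.66 and -0.53.

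Mbp encodes the basic protein that draws the cytoplasmic faces of compact myelin together. The gene (ENSRNOG00000016516) lies on chromosome 18 from 79326738 to 79437310 on the plus strand, a span that in mouse also holds the start of the longer Golli transcripts, which a value per gene does not separate. It had 42.4 and 50.7 CPM in control libraries and 49.7 and 48.5 CPM in siRNA libraries, so the siRNA values lay between the control ones. The log2 fold change of 0.08 (SE 0.10, adjusted p = 0.640) had a 95% interval of -0.14 to 0.30. That interval leaves room for a fold between 0.908 and 1.23. Without control library A the value was -0.05.

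Genes of non-compact myelin moved apart as well. Mag fell, Cnp was slightly higher and Prx did not pass.

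Mag encodes a sialic acid-binding adhesion protein on the membrane that faces the axon. Its gene (ENSRNOG00000021023) lies on chromosome 1 from 89345429 to 89360733 on the minus strand. Levels were 420.7 and 397.8 CPM in control libraries and 325.8 and 277.7 CPM in siRNA libraries. Every siRNA value was below every control value, and siRNA library B was the lowest. The log2 fold change was -0.44 (SE 0.08, 95% interval -0.62 to -0.26, adjusted p = 0.00348), so that 73.7% of the control level remained. Without siRNA library B the value was -0.33 and the adjusted p = 0.0525.

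Cnp encodes a cyclic nucleotide phosphodiesterase that keeps cytoplasmic channels in myelin open. Its gene (ENSRNOG00000017496) lies on chromosome 10 from 88490798 to 88497356 on the plus strand. It rose from 987.2 and 1060 CPM in control libraries to 1248 and 1160 CPM in siRNA libraries. The groups did not overlap, but control library B and siRNA library B were close. The log2 fold change of 0.23 (SE 0.07, 95% interval 0.08 to 0.39) passed narrowly, with an adjusted p = 0.0420. Leaving out control A, siRNA A or siRNA B ended the call, with adjusted p-values of 0.192, 0.310 and 0.101, and the fold change then ranged from 0.18 to 0.28.

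Prx encodes periaxin, a scaffold of myelinating Schwann cells that binds Drp2 and, through it, the dystroglycan complex at the outer membrane. Its gene (ENSRNOG00000018369) lies on chromosome 1 from 84304228 to 84324560 on the plus strand. It had 91.6 and 88.0 CPM in control libraries and 96.1 and 78.9 CPM in siRNA libraries. The siRNA libraries lay on either side of the controls. The log2 fold change of -0.04 (SE 0.10, adjusted p = 0.815) had a 95% interval of -0.25 to 0.17, and its sign changed with library-size scaling (0.01).

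Mal and Ncmap were the least expressed members. Mal encodes a proteolipid of membrane rafts that takes part in sorting myelin proteins. The gene (ENSRNOG00000015445) lies on chromosome 3 from 120209647 to 120233655 on the minus strand. It had 10.6 and 12.98 CPM in control libraries against 9.19 and 7.67 CPM in siRNA libraries, resting on 240 to 336 counts per library. The groups did not overlap, yet the log2 fold change of -0.49 (SE 0.17, 95% interval -0.85 to -0.13) narrowly missed the threshold, with an adjusted p = 0.0573. Limma-voom called Mal lower (adjusted p = 0.0438), while DESeq2 did not (-0.49, adjusted p = 0.121). Mal was called lower under 3 of the 14 alternatives. With 1 library left out its log2 fold change ranged from -0.65 to -0.36.

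Ncmap encodes a membrane protein of non-compact myelin. The gene (ENSRNOG00000048139) lies on chromosome 5 from 153729250 to 153737161 on the minus strand. It had 0 counts in both control libraries, 6 counts in siRNA A and 2 counts in siRNA B, too few for the test. Only siRNA A exceeded a floor of 3 counts, so no fold is given. Without the filter on low counts the adjusted p was 0.322.

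**Figure D2:**
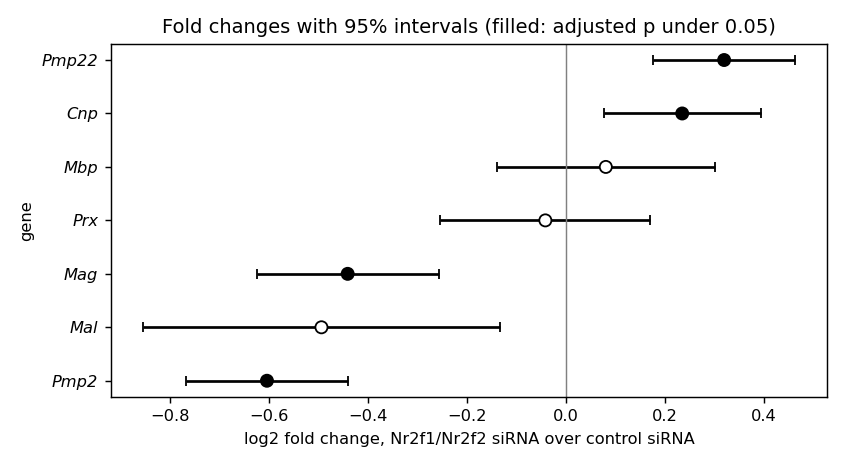
Log2 fold change of the 7 tested myelin protein genes, Nr2f1/Nr2f2 siRNA over control siRNA (horizontal axis), with 95% intervals from edgeR; filled points have an adjusted p under 0.05. Pmp22 and Cnp lie above 0, Mag and Pmp2 below it, and the interval of Mal excludes 0 although its adjusted p is 0.0573.

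In all, 2 of the 7 tested members rose (28.6%) and 2 fell (28.6%), while 8.05% of all 13018 tested genes rose and 10.0% fell. With upper-quartile or library-size scaling, the share of higher genes among those called was 53.3% and 57.7%, while TMM gave 44.6%. Of the tested genes between 100 and 1000 CPM, the range that holds Pmp2 and Mag, 8.56% rose and 18.7% fell. Their median log2 fold change was -0.06. Above 1000 CPM, where the means of Pmp22 and Cnp lie, 7.37% rose and 21.1% fell, with a median of -0.09. The 7 members had a median of -0.04, beside 0.01 over all tested genes. In 5 of the 7 (71.4%) the groups did not overlap, as in 58.6% of all tested genes, so such separation is common here.

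Ratios within a library do not depend on how libraries are scaled. The level of Pmp2 per length was 22.3% (A) and 24.4% (B) of that of Pmp22 with control siRNA, and 11.9% (A) and 12.7% (B) with Nr2f1/Nr2f2 siRNA. The groups were far apart in this ratio. Mag was at 11.4% and 10.9% of Pmp22 in control and at 7.13% and 6.02% in siRNA libraries, again without overlap. Set against Cnp, Pmp2 went from 74.9% and 75.1% to 38.9% and 45.2%. Prx and Mbp, which did not pass the test, also separated the groups when set against Pmp22. Prx was at 1.38% and 1.34% of Pmp22 in control against 1.17% and 0.952% in siRNA libraries, and Mbp at 0.873% and 1.06% against 0.831% and 0.803%. The ratios therefore restate the fold changes of both genes of a pair, that of Pmp22 included. Cnp was at 29.8% and 32.4% of Pmp22 in control and 30.6% and 28.1% in siRNA libraries, and Mag at 50.9% and 44.7% of Pmp2 against 59.9% and 47.4%, and both overlapped. With 2 libraries against 2, an exact two-sided permutation test cannot go below p = 0.333, so no p is given for the ratios.

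**Figure D3:**
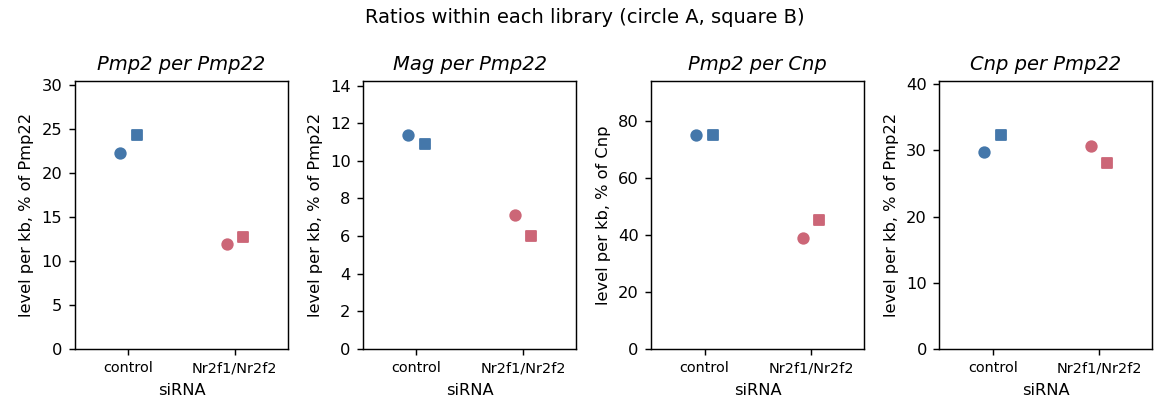
Level per kilobase of 1 gene as a percentage of another in the same library (vertical axes from 0), for control and Nr2f1/Nr2f2 siRNA; points are libraries. Pmp2 per Pmp22, Mag per Pmp22 and Pmp2 per Cnp are lower in both siRNA libraries, and Cnp per Pmp22 overlaps at 28.1% to 32.4%.

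The authors' deposited table gives the same directions for the 7 tested members. In the authors' deposited table the adjusted p-values are 4.41e-05 for Pmp22, 0.0185 for Cnp, 1.79e-05 for Mag and 1.72e-12 for Pmp2. The authors' deposited table gives 0.139 for Mal, 0.793 for Mbp and 0.856 for Prx, and for Ncmap an adjusted p of 1.

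Genes that work beside these proteins were followed in 6 further lists. Of 69 genes found in the table, 50 were tested, of which 5 rose (10.0%), 11 fell (22%) and 34 did not pass. Over all tested genes these shares were 8.05% and 10.0%, so the share that rose was near the background. The share that fell was 11.2% among genes between 10 and 100 CPM, 18.7% between 100 and 1000 CPM and 21.1% above 1000 CPM. The listed genes lie in all these ranges and also below 10 CPM, so none of these shares is a matched background.

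The list of periaxin complex partners holds dystrophin-dystroglycan genes, laminin receptor genes and Ezr. Of its 12 tested genes, 2 rose, 3 fell and 7 did not pass, with a median log2 fold change of -0.03. Drp2, whose product binds periaxin directly, rose by a log2 fold change of 0.67 ± 0.16 (SE), from 6.69 ± 0.585 to 10.7 ± 0.201 CPM, with an adjusted p = 0.0120, or 0.0688 without control B. Sntb1, a syntrophin adaptor of the same complex, fell from 53.4 ± 0.415 to 25.7 ± 0.00425 CPM (log2 fold change -1.05, adjusted p = 1.54e-05). The membrane-actin linker gene Ezr had a log2 fold change of -0.36 and an adjusted p = 0.00597. Dag1, the dystroglycan gene, was lower by a small step (-0.21, SE 0.07, adjusted p = 0.0443). Dag1 lost its call without any 1 library (adjusted p = 0.0736 to 0.239) and under loess offsets (0.235), library size alone (0.111), upper-quartile factors (0.0806) or no robust estimation (0.0620). The other partner that rose was the syntrophin gene Sntb2 (0.46, adjusted p = 0.0481), named after its value was seen. The count of partners higher was 1 with relative log expression factors, DESeq2, limma-voom, thinned counts, loess offsets or no robust estimation, and without control A or siRNA A. It was 0 without control B.

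Adhesion and junction genes of non-compact myelin gave 2 higher, 2 lower and 8 not past the test of 12, with a median of 0.06. Over all tested genes 8.05% were higher and 10.0% lower. The connexin gene Gjc3 rose from 10.9 ± 1.40 to 20.4 ± 0.0305 CPM (0.91, SE 0.13, adjusted p = 0.000623). Cadm4, which encodes the Schwann cell adhesion protein that binds axonal nectin-like partners, fell from a mean of 2532 to 1858 CPM (-0.45, SE 0.09, adjusted p = 0.00389). Mpp6, the gene of a membrane scaffold that binds Cadm4, had a log2 fold change of -0.81 (adjusted p = 0.00483). The E-cadherin gene Cdh1 rose from a low level, 0.761 ± 0.0161 to 2.08 ± 0.125 CPM (1.46, SE 0.36, adjusted p = 0.0140). Cdh1 lost its call with DESeq2 (adjusted p = 0.0502) and without control library A (0.0946), control library B (0.0714) or siRNA library B (0.0670).

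Beside 8.05% higher over all tested genes, 1 of 8 tested genes rose and 0 fell in the list of other compact myelin and tetraspan proteins. The median there was 0.13. The gene that rose was Cd9, a tetraspanin of myelin, from 552.2 ± 8.79 to 709.8 ± 13.9 CPM (0.36, SE 0.07, adjusted p = 0.00323). The tetraspan relatives Emp1 and Emp3 went the other way from Pmp22 itself, while Emp2 did not pass (-0.02, adjusted p = 0.891). In the list of PMP22 and EMP family genes, which also holds Mpzl1, 3 of 4 tested genes fell and 0 rose, with a median of -0.32. This stands beside 10.0% lower over all tested genes and 18.7% between 100 and 1000 CPM, where the 4 genes lie. Emp1 fell from 580.2 ± 15.9 to 456.3 ± 9.27 CPM (-0.35, SE 0.07, adjusted p = 0.00470) and Emp3 from 266.0 ± 5.74 to 215.8 ± 11.7 CPM (-0.30, SE 0.07, adjusted p = 0.0145). Emp3 lost its call without control library A (adjusted p = 0.0608) or siRNA library B (adjusted p = 0.166). The other gene of the list that fell, Mpzl1, is an immunoglobulin-type surface protein rather than a tetraspan relative, and fell to a mean of 98.7 from 160.4 CPM (-0.70, adjusted p = 7.82e-05).

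Of the lipid-binding family of Pmp2, 3 genes were tested, of which 1 fell and 0 rose. Over all tested genes 8.05% were higher and 10.0% lower. Between 100 and 1000 CPM, where Fabp5, Tead1 and Wwtr1 lie, 18.7% were lower. Fabp5 fell from 434.2 ± 47.2 to 329.4 ± 18.9 CPM (-0.40, SE 0.09, adjusted p = 0.00681), and its adjusted p was 0.0549 without siRNA library B. Fabp4, Fabp7, Rbp4 and Crabp1 had no count. Of 11 tested activators of peripheral myelin genes, 2 fell and 0 rose, with a median of 0.02, and the same background shares apply. Tead1 (-0.51, SE 0.07, adjusted p = 0.000522) and Wwtr1 (-0.31, SE 0.07, adjusted p = 0.0103) were the ones that fell, and the adjusted p of Wwtr1 was 0.0609 with siRNA A left out and 0.0799 with siRNA B left out. Sox10 had a control level of 701.3 ± 16.6 and an siRNA level of 722.8 ± 52.0 CPM, and Egr2 of 59.5 ± 0.676 and 63.0 ± 0.353 CPM. Neither passed the test (adjusted p = 0.741 for Sox10 and 0.544 for Egr2).

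**Figure D4:**
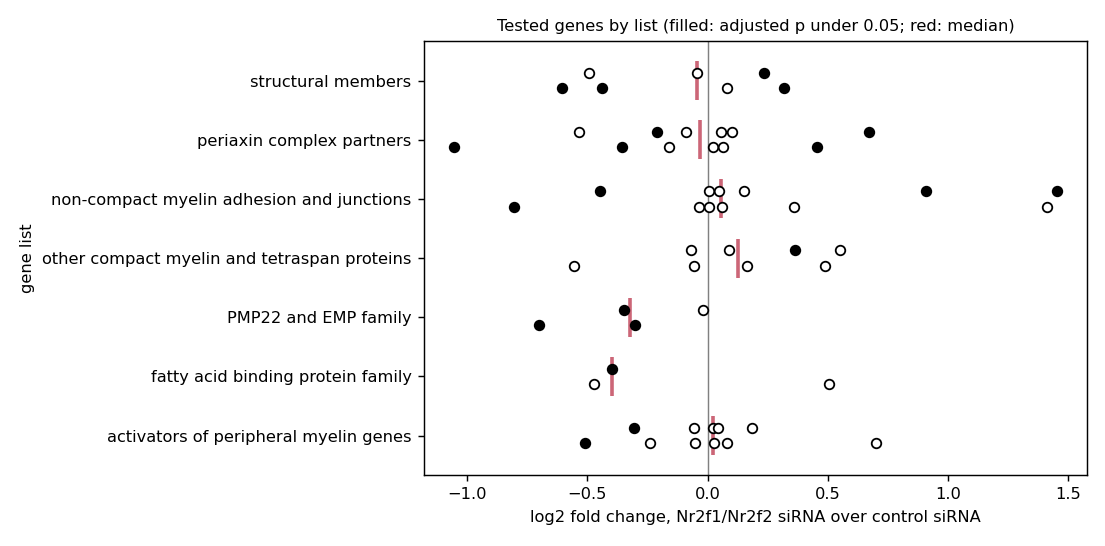
Log2 fold change, Nr2f1/Nr2f2 siRNA over control siRNA (horizontal axis), of every tested gene in the structural protein list and the 6 further lists; filled points have an adjusted p under 0.05 and red bars are list medians. Every list except the PMP22 and EMP list holds points on both sides of 0, and the lowest medians are -0.40 for the fatty acid binding protein list of 3 genes and -0.32 for the PMP22 and EMP list of 4.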

How the data were processed

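Polyadenylated RNA of S16 cells was sequenced in 4 libraries. The authors deposited a table of unnormalised counts for each rat gene. The submitters' processing notes name DESeq2 1.20.0, HISAT2 and featureCounts 1.5.0-p3, without roles. Genome build, annotation release and strand setting were not given in the sources used. Coordinates are those of the files unless GRCr8 is named. No member overlaps another gene that had a count. The gene lengths used for levels per kilobase are in another column the authors deposited. The authors' deposited comparison table gave its own log2 fold changes and p-values. Its 12 further per-library and 2 group-mean columns were not used. Column names show the group but not the replicate of the titles.

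Counts were analysed with edgeR 4.0.16 in R 4.3.3 (filterByExpr, TMM factors of 0.975 to 1.02, quasi-likelihood fit with robust estimation, intercept and group). P-values were adjusted by Benjamini-Hochberg over 13018 genes with a threshold of 0.05. The biological coefficient of variation was 0.111. Standard errors derive from the F statistic. The scripts were tested on simulated counts. The labels name no molecular identifiers, so the floor of 3 counts covers counting error only.

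All members were named, with Nr2f1, Nr2f2, and per further list up to 4 called genes with the smallest adjusted p. Sox10, Egr2, marker genes and genes with no count were named after their values were seen, as was Sntb2; 1 gene is not reported here. Members and lists were chosen with earlier results of these data known. Alternatives were other scaling, filters, DESeq2 1.42.0, limma-voom (limma 3.58.1), thinned counts and leaving out each library; loess offsets and a fit without robust estimation were added after seeing the data.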

Additional observations from a re-analysis of the deposited data

How the results depend on the processing

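No paired analysis was possible because the columns do not carry the replicate numbers of the titles, and their own numbers share only 1 between the groups. Pmp2 passed under all 14 alternatives, Mag under 13, Pmp22 under 12, Cnp under 10, Mal under 3, and Mbp and Prx under 0. Leaving out 1 library gave 0 to 2 members higher and 1 to 3 lower. The members' log2 fold changes were then 0.30 to 0.33 for Pmp22, 0.18 to 0.28 for Cnp, -0.56 to -0.33 for Mag, -0.65 to -0.36 for Mal, -0.049 to 0.20 for Mbp (reversed without control A) and -0.19 to 0.094 for Prx (reversed without siRNA B). Over all genes, 602 to 766 were then higher and 751 to 1086 lower, and 3 to 4 genes of the further lists were higher. Without robust estimation 1 member was higher, since Cnp (0.23) had an adjusted p = 0.0605. With DESeq2 3 genes of the further lists were higher. Mal was called lower by limma-voom (-0.50) and with loess offsets (-0.55). Prx changed sign with library-size scaling (0.010) and loess offsets (0.0021). The cause of these shifts was not tested. A left-out library leaves a lone one that is assumed to vary like the other group.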
